A study of Mus musculus with 15 samples.

Results

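The 35 genes described here serve protein folding: 22 encode sensors, chaperones and degradation factors of the endoplasmic reticulum (ER), 10 encode the heat shock factor HSF1 and heat shock proteins of the cytosol, and 3 encode mitochondrial chaperones. They are a list of gene names, drawn up with earlier results of these data known, and all 35 matched 1 row each among the 55421 gene IDs of the table. All 35 also passed the filter of at least 1 TPM (a unit that gives a gene's length-corrected share of a library's transcripts) in at least 3 libraries, which left 12800 genes for testing. Of the 35, 33 were at 1 TPM or more in all 15 libraries, while Hspa1a was in 12 and Hspa1b in 13, and both were below 1 TPM only in STAT3 knockout libraries.

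Proteins bound for secretion or for the cell surface fold in the ER, and a load that exceeds its chaperones sets off the unfolded protein response. One branch runs through IRE1, the product of Ern1, which splices Xbp1 mRNA so that it encodes an active transcription factor. ATF6 forms another branch: it leaves the ER, is cut in the Golgi and moves to the nucleus, while the kinase PERK slows translation and raises ATF4. XBP1 and ATF6 raise ER chaperones and the machinery of ER-associated degradation, and XBP1 is best known in lymphocytes for the secretory expansion of plasma cells. HSF1 runs the separate heat shock response of the cytosol. Both systems have been studied in activated T cells, which grow, divide and begin to secrete cytokines.

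The cells were mouse CD4 T cells, and each of 5 groups had 3 poly(A) RNA-seq libraries made on day 5 of culture. The groups were Treg cells with Srci1, Treg cells with DMSO, STAT3 knockout TH17 cells with DMSO, TH17 cells with Srci1, and TH17 cells with DMSO. Srci1 is a compound known here by its code name only; it went into the cultures 24 h after plating, and its concentration is not stated in the labels used here. All cultures began as naive CD4 T cells sorted from spleen and lymph nodes and received plate-bound antibodies to CD3 and CD28 and antibodies to IFNγ and IL-4. TH17 cultures had TGFβ at 2.5 ng/ml with IL-6, IL-1β and IL-23, and Treg cultures had IL-2 with TGFβ, for which the protocol names 0.5 ng/ml or a dose indicated elsewhere. The knockout genotype was STAT3-fl/fl CD4-cre, in which the Cd4 promoter drives Cre from thymic development on, and the other 4 groups were labelled wild type with no statement on Cre or on age or strain. Nothing in the labels says that replicates came from separate mice or cultures, so p-values reflect only how these libraries vary, and that variation may be technical. The cell types differ in cytokines as well as in lineage, and in TGFβ dose too if the Treg cultures had the 0.5 ng/ml named.

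Depth per library is unknown, because TPM sums to the same total in each. Pairwise correlations of log2(TPM + 1) over the tested genes were 0.977 to 0.986 within groups and 0.902 to 0.97 between groups. The targeted gene Stat3 averaged 34.2 ± 3.898 TPM in STAT3 knockout cells against 121 ± 18.3 TPM in wild type TH17 cells (SD, n = 3 each). Summed T cell markers (Cd3e, Cd3d, Cd3g, Cd4 and Cd5) averaged 1233 ± 5.89 TPM in the lowest group, Srci1 TH17 cells, and 1943 ± 77.4 TPM in the highest, knockout TH17 cells. The TH17 cytokine Il17a averaged 10.2 ± 1.45 TPM in knockout TH17, 40.4 ± 3.31 TPM in Srci1 TH17 and 1338 ± 51.5 TPM in DMSO TH17 cells. Il17f averaged 19.05 ± 0.755 TPM in knockout TH17, 531 ± 18.1 TPM in Srci1 TH17 and 2551 ± 111 TPM in DMSO TH17 cells, so the TH17 label of the knockout cells names a culture condition. Foxp3, the defining Treg factor, averaged 268 ± 11.03 TPM in Srci1 Treg, 129.7 ± 2.23 in DMSO Treg, 205 ± 17.6 in knockout TH17, 204 ± 8.37 in Srci1 TH17 and 11.7 ± 2.15 in DMSO TH17 cells. Summed Treg markers (Foxp3, Il2ra, Ctla4 and Ikzf2) averaged 1586 ± 49.6 TPM in Srci1 Treg and 1182 ± 4.45 TPM in DMSO Treg cells. The sum averaged 786 ± 89.8 TPM in knockout, 1803 ± 101 TPM in Srci1 and 1115 ± 168 TPM in DMSO TH17 cells. Of these 4 genes, 2 had a higher and 2 a lower mean in knockout than in DMSO TH17 cells. DMSO TH17 replicate 3 stood apart from its group, with a median-of-ratios size factor (the median, over genes, of the library's TPM relative to the mean of all libraries on a log scale) of 0.788 against 0.939 and 0.905 for the other 2. Calls of the 35 genes that changed without it are named beside the result they touch. In bulk RNA, fewer cells of a type and less RNA per cell cannot be told apart.

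Letters known to be bound by the unfolded protein response factors stand close to the start of several of these genes, and the promoter windows below show where. The RefSeq promoter table (GRCm38.p6, 250 bases before to 50 after each gene's start) held 27 of the 35 genes. Hsp90ab1, Atf6, Hyou1, Hsf1, Hspa9, Manf, Hspa8 and Hsp90aa1 had no entry. Searched on both strands, the ER stress response element (ERSE: CCAAT, 9 bases of any kind, CCACG), the site known for ATF6 and XBP1 with NF-Y, stood in 8 of 19 ER genes. It stood in 0 of 6 cytosolic and 0 of 2 mitochondrial genes, and in 0.137% of all 27025 genes with a promoter listed. The windows of these 8 genes run 5′ to 3′ on the gene's strand, with the match in capitals; Calr and Creld2 hold it as the reverse complement.
Hspa5, chr2:34772020-34772048 (plus strand): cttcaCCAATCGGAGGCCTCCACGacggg
Calr, chr8:84847060-84847108 (minus strand): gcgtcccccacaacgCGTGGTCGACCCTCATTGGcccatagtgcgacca
Hsp90b1, chr10:86705623-86705671 (minus strand): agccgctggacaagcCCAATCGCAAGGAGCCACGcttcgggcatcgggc
Canx, chr11:50325785-50325833 (minus strand): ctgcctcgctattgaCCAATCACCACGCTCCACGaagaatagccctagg
Pdia6, chr12:17266476-17266524 (plus strand): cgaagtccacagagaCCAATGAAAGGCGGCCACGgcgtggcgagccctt
Dnajc3, chr14:118937812-118937860 (plus strand): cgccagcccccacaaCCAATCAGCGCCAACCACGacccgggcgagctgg
Creld2, chr15:88819505-88819553 (plus strand): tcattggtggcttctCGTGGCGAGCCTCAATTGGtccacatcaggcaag
Syvn1, chr19:6046517-6046565 (plus strand): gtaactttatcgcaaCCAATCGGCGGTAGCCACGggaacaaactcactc

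The first letter of each match lay 44 (Syvn1) to 212 (Hsp90b1) bases upstream of the RefSeq start, and Hsp90b1 held a second match. A shorter relative, ERSE-II (ATTGG, 1 base of any kind, CCACG), stood in Herpud1 and Dnajb11 and in 0.0444% of all genes listed. The unfolded protein response element TGACGTGG was in none of the 27 genes with a window and in 0.714% of all genes listed. The heat shock element bound by HSF1 (TTC, GAA and TTC with 2 bases of any kind between them) stood in Hsph1 and in the stretch that Hspd1 and Hspe1 share head to head, and in 0.662% of all genes listed. A single window of each kind is shown, with the match in capitals; in the shared stretch the capitals hold 2 overlapping matches, 1 on each strand. A match is a description of letters and says nothing of binding in these cells.
Herpud1, chr8:94386372-94386392 (plus strand): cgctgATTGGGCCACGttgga
Hspe1, chr1:55088054-55088081 (plus strand): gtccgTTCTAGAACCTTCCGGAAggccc

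Across the 5 groups, the STAT3 knockout libraries held the lowest level of most of these genes. The group mean was lowest in knockout TH17 cells for 26 of 35 genes (16 of 22 ER, 8 of 10 cytosolic and 2 of 3 mitochondrial), and it was highest there for 0. Over all 12800 tested genes the mean was lowest there for 27.1% and highest for 20.2%. The highest mean was in Treg cells with Srci1 for 12 of the 35 (32.7% of all genes), in TH17 cells with Srci1 for 10 (22%), in Treg cells with DMSO for 7 (14.4%) and in TH17 cells with DMSO for 6 (10.7%). Summed over the 22 ER genes, TPM averaged 3514 ± 60.7 in Srci1 Treg, 3559.9 ± 21.4 in DMSO Treg, 2633 ± 70.1 in knockout TH17, 3877 ± 124 in Srci1 TH17 and 3868 ± 59.2 in DMSO TH17 cells (SD, n = 3 each). TPM summed over the 10 cytosolic genes averaged 7662 ± 257 in Srci1 Treg, 7457 ± 306 in DMSO Treg, 5945 ± 228 in knockout TH17, 7062 ± 243 in Srci1 TH17 and 6720.3 ± 344 in DMSO TH17 cells. Most of it came from Hspa8 and Hsp90ab1, the constitutive HSP70 and HSP90 of the cytosol. TPM summed over the 3 mitochondrial genes averaged 1045 ± 9.1 in Srci1 Treg, 1027 ± 26.8 in DMSO Treg, 765 ± 17.5 in knockout TH17, 868 ± 34.3 in Srci1 TH17 and 828 ± 24.96 in DMSO TH17 cells. On this per-length scale the genes spanned from 4008 ± 221 TPM for Hspa8 in DMSO TH17 cells down to 2.33 ± 0.3897 TPM for Hspa1a in the same cells.

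**Figure D1:**
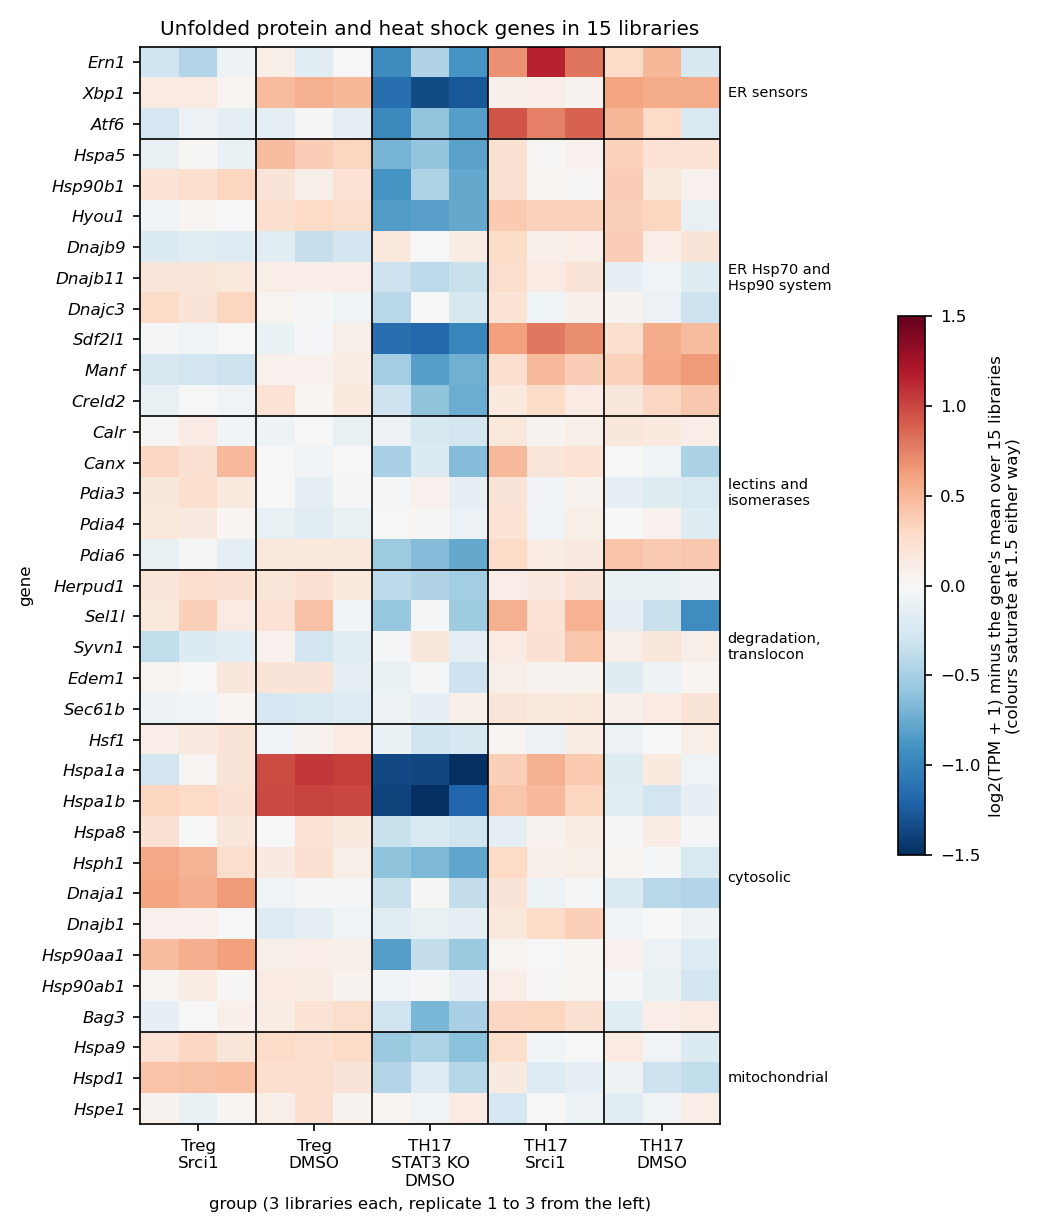
Each row is 1 of the 35 genes in order of role, each column 1 of 15 libraries, and colour gives log2(TPM + 1) minus the gene's mean over the 15 libraries, with colours saturating at 1.5 either way. Blue dominates the 3 STAT3 knockout columns, and 26 of the 35 genes have their lowest group mean there, against 27.1% of all tested genes.

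Loss of STAT3 was set beside wild type in TH17 cells with DMSO in both. Of the 35 genes, 22 fell in knockout cells (limma on log2(TPM + 1), Benjamini-Hochberg adjusted p under 0.05 over all 12800 genes) and 0 rose, where 18.9% of all genes fell and 30.9% rose. At an unadjusted p under 0.05, 1 of the 35 genes was higher and 22 lower, and 7072 of all 12800 genes passed in either direction. The median log2 fold change was -0.34 over the 35 genes and 0.13 over all genes. By compartment, 14 of 22 ER, 7 of 10 cytosolic and 1 of 3 mitochondrial genes fell. Median-of-ratios scaling brought the all-gene median to 0.01 and the share of higher genes among all calls to 50.3% against 62.1%. With it 26 of the 35 fell and 0 rose, where 3245 of all 12800 genes fell and 3290 rose. With quantile normalization 23 of the 35 fell and 1 rose, where 3203 of all 12800 genes fell and 3323 rose. The genes added to the 22 by median-of-ratios scaling were Canx (-0.40, adjusted p = 0.00256), Dnajb1 (-0.24, adjusted p = 0.0215), Dnajc3 (-0.23, adjusted p = 0.0405) and Hspd1 (-0.23, adjusted p = 0.0128).

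All 3 members that sense or relay ER stress fell. Ern1 (ENSMUSG00000020715.9, chromosome 11, 106394650 to 106487852, minus strand, GRCm38), which encodes IRE1, measured 1.47, 2.49 and 1.59 TPM in STAT3 knockout libraries, against 4.83, 5.71 and 3.02 TPM in wild type libraries. All knockout libraries lay below all wild type libraries (log2 fold change -0.94 ± 0.2 SE, adjusted p = 0.00151). Xbp1 (ENSMUSG00000020484.19, chromosome 11, 5520659 to 5525893, plus strand) measured 75.7, 65.3 and 68.8 TPM in STAT3 knockout libraries, against 251, 245 and 246 TPM in wild type libraries. The groups were far apart relative to their spread, with a mean TPM 3.54 times as high in wild type cells (log2 fold change -1.81 ± 0.055 SE, adjusted p = 6.19e-12); gene-level TPM does not separate spliced from unspliced Xbp1. Atf6 (ENSMUSG00000026663.6, chromosome 1, 170704674 to 170867771, minus strand) measured 3.43, 4.76 and 3.9 TPM in STAT3 knockout libraries, against 11.2, 9.61 and 6.38 TPM in wild type libraries, with no overlap (log2 fold change -0.98 ± 0.16 SE, adjusted p = 0.000179). Wild type replicate 3 was the lowest of its group for Ern1 and Atf6, and without it their fold changes were -1.15 (adjusted p = 0.000242) for Ern1 and -1.19 (adjusted p = 6.23e-06) for Atf6.

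Among the HSP70 and HSP90 chaperones of the ER and their co-factors, 7 of 9 fell. Hspa5 (ENSMUSG00000026864.13, chromosome 2, 34771970 to 34777547, plus strand), which encodes the HSP70 of the ER known as BiP, measured 188, 203 and 175 TPM in STAT3 knockout libraries, against 389.7, 354 and 356 TPM in wild type libraries. The highest knockout library lay well below the lowest wild type library (log2 fold change -0.96 ± 0.073 SE, adjusted p = 9.11e-08). Sdf2l1, whose product works with the co-chaperone ERdj3, fell most within this role, with 37.1, 35.98 and 41.5 TPM in STAT3 knockout libraries, against 97.9, 122 and 115 TPM in wild type libraries (log2 fold change -1.52 ± 0.086 SE, adjusted p = 4.03e-09). Manf, a secreted BiP-binding protein, fell by 1.20 on the log2 scale (adjusted p = 5.02e-08), Hyou1, an exchange factor of BiP, by 1.00 (adjusted p = 9.97e-07), and Hsp90b1, the HSP90 of the ER, by 0.90 (adjusted p = 7.03e-06). Creld2 fell by 0.85 (adjusted p = 9.36e-06) and Dnajb11, which encodes ERdj3, by 0.22 (adjusted p = 0.00367; 0.0519 with the compared groups alone, and 0.000587 to 0.0519 over all alternatives). The BiP co-chaperones Dnajb9 (-0.13, adjusted p = 0.333) and Dnajc3 (-0.10, adjusted p = 0.503) were not called. Whether strand was used in counting is not given in the sources used here, and Manf overlaps Dcaf1 and Rbm15b, which reached 31.5 and 23.2 TPM, while Hsp90b1 overlaps an antisense pseudogene that reached 100.04 TPM. Likewise Syvn1 overlaps Mrpl49 (up to 44.3 TPM) and Dnaja1 overlaps Smu1 (up to 83.3 TPM). Hspd1 and Hspe1 lie on opposite strands, overlap each other and reached 433 and 425 TPM. Of the neighbours named here, Rbm15b lies on the same strand as Manf.

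The lectin chaperones and disulfide isomerases were divided. Pdia6, a disulfide isomerase, measured 117, 108 and 99.8 TPM in STAT3 knockout libraries, against 231, 225 and 227 TPM in wild type libraries, and the groups did not overlap (log2 fold change -1.07 ± 0.064 SE, adjusted p = 7.22e-09). Calr, which encodes the lectin chaperone calreticulin, fell by 0.34 (adjusted p = 0.000311). Its membrane-bound relative Canx was not called (-0.27, adjusted p = 0.112); without wild type replicate 3 it was (-0.42, adjusted p = 0.0122; range of adjusted p over all alternatives 0.00256 to 0.362). Pdia4 gave 0.02 (adjusted p = 0.83). Pdia3, the isomerase that works with the lectin chaperones, measured 299, 317 and 277 TPM in STAT3 knockout libraries, against 278, 266 and 258 TPM in wild type libraries, and the groups overlapped. It was not called (0.15, adjusted p = 0.0827), but was higher in knockout cells after quantile normalization (0.20, adjusted p = 0.029; range over all alternatives 0.029 to 0.834).

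Of the degradation and translocon genes, 2 of 5 fell. Herpud1, a scaffold of ER-associated degradation, measured 51.7, 49.5 and 47.2 TPM in STAT3 knockout libraries, against 63.2, 63.2 and 64.8 TPM in wild type libraries, with narrow groups that did not overlap (log2 fold change -0.36 ± 0.055 SE, adjusted p = 8.63e-05). Sec61b, a subunit of the channel that admits proteins to the ER, fell by 0.17 (adjusted p = 0.0198). Its call was lost on leaving out any 1 of 3 libraries (knockout replicate 1, knockout replicate 2 or wild type replicate 3; adjusted p 0.0634 to 0.0915, and 0.00304 to 0.197 over all alternatives). Sel1l and Syvn1, the adaptor and the ubiquitin ligase of a single degradation complex, gave 0.08 (adjusted p = 0.763) for Sel1l and -0.11 (adjusted p = 0.442) for Syvn1. Edem1, which helps select misfolded glycoproteins, gave -0.07 (adjusted p = 0.616). Among the 8 ER genes whose window holds the ERSE printed above, 5 fell (Hspa5, Hsp90b1, Creld2, Calr and Pdia6), as did 6 of the 11 ER genes whose window lacks it.

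**Figure D2:**
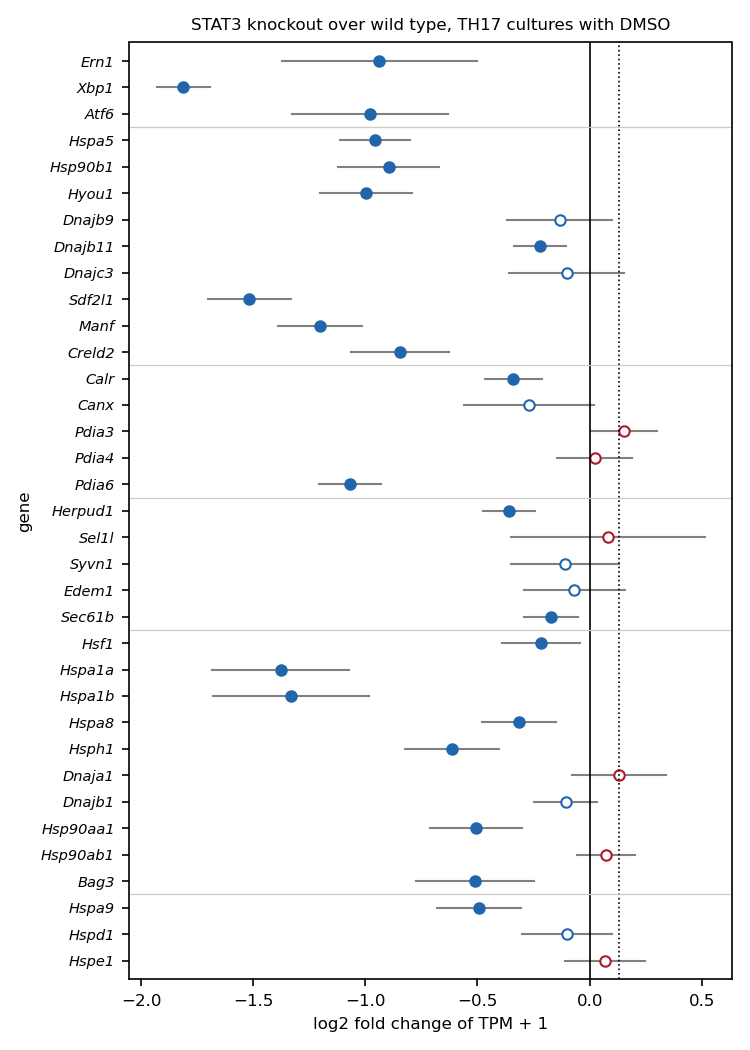
Points give the log2 fold change of each gene, STAT3 knockout minus wild type in TH17 cells, with bars for its 95% interval from limma; filled points passed an adjusted p of 0.05 and the dotted line marks the all-gene median of 0.13. Xbp1, Sdf2l1, Hspa1a and Hspa1b lie farthest to the left, and 0 of 35 genes are called to the right.

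In the cytosol 7 of 10 genes fell. Hsf1, the regulator of the heat shock response, measured 33.2, 28.9 and 30.02 TPM in STAT3 knockout libraries, against 33.5, 36.02 and 38.1 TPM in wild type libraries. All knockout values lay below the wild type values, yet the lowest wild type library was close to the highest knockout library (log2 fold change -0.22 ± 0.081 SE, adjusted p = 0.0381). The call was lost on leaving out any 1 of 4 libraries (knockout replicate 2 or 3, wild type replicate 2 or 3; adjusted p 0.0824 to 0.132). Hspa1a (ENSMUSG00000091971.3, chromosome 17, 34969190 to 34972156, minus strand) and Hspa1b (ENSMUSG00000090877.3, chromosome 17, 34956436 to 34959238, minus strand) encode the inducible HSP70; their coding sequences are 99.4% identical, so the split of reads between them is uncertain. Hspa1a measured 0.32, 0.31 and 0.2 TPM in STAT3 knockout libraries, against 1.98, 2.75 and 2.26 TPM in wild type libraries (log2 fold change -1.38 ± 0.14 SE, adjusted p = 2.03e-06). Hspa1b measured 0.88, 0.26 and 1.16 TPM in STAT3 knockout libraries, against 3.41, 3.07 and 3.54 TPM in wild type libraries (log2 fold change -1.33 ± 0.16 SE, adjusted p = 1.06e-05). For both genes the groups stood clear of each other, and their summed TPM was 1.2, 0.57 and 1.36 in knockout and 5.39, 5.82 and 5.8 in wild type libraries. At such levels the fold on the log2(TPM + 1) scale understates the ratio of TPM.

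Hsph1, the HSP110 exchange factor, fell by 0.61 (adjusted p = 0.000123). Hsp90aa1, the inducible HSP90, fell by 0.51 (adjusted p = 0.000541), the co-chaperone Bag3 also by 0.51 (adjusted p = 0.00312), and Hspa8 by 0.31 (adjusted p = 0.00365). The HSP40 genes Dnaja1 (0.13, adjusted p = 0.288) and Dnajb1 (-0.11, adjusted p = 0.193) and the constitutive Hsp90ab1 (0.07, adjusted p = 0.342) were not called. In mitochondria, Hspa9, the HSP70 of the matrix, measured 146, 157 and 140.5 TPM in STAT3 knockout libraries, against 234, 207 and 187 TPM in wild type libraries, and its groups did not overlap (log2 fold change -0.49 ± 0.088 SE, adjusted p = 0.000331). The chaperonin genes Hspd1 (-0.10, adjusted p = 0.399) and Hspe1 (0.07, adjusted p = 0.526) were not called.

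Related genes outside the 35 moved in both directions, where 18.9% of all tested genes fell and 30.9% rose. Of 10 genes of the PERK and ATF4 branch, 6 fell and 2 rose. Atf4 averaged 129.5 ± 7.47 TPM in knockout and 194 ± 6.24 TPM in wild type cells (-0.58, adjusted p = 5.26e-07), and Ppp1r15a, which reverses PERK's effect on translation, fell as well (-1.06, adjusted p = 1.6e-06). Of 13 other degradation genes 2 fell, including Edem2 (-1.08, adjusted p = 8.86e-09), and 2 rose. Of 12 other ER folding genes tested 3 fell, including P4hb (-0.61, adjusted p = 6.06e-06), and 1 rose, Pdia5 (1.12, adjusted p = 7.95e-06). Of 15 translocon and signal peptide genes 4 fell and 3 rose, and of 5 ATF6 processing genes and relatives 1 fell and 1 rose, Mbtps1, whose protease makes the first cut in ATF6 (1.00, adjusted p = 1.42e-05). In the cytosol, 7 of 19 other heat shock genes and HSP90 co-chaperones fell and 3 rose, with Stip1, which links HSP70 to HSP90, the one of smallest adjusted p (-0.46, adjusted p = 6.99e-06). Of the 8 subunits of the chaperonin TRiC, 5 fell and 1 rose. Of 9 other mitochondrial genes 2 fell and 1 rose. With median-of-ratios scaling the genes that fell and rose were 6 and 1 for the PERK and ATF4 branch, 4 and 2 for degradation, 5 and 1 for ER folding, 7 and 1 for the translocon, 2 and 1 for the ATF6 list. In the cytosolic list they were 12 and 1, in TRiC 6 and 0 and in the mitochondrial list 4 and 1. Under that scaling 3245 of all 12800 genes fell and 3290 rose.

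Markers of other cells moved with the genotype. Summed TPM of the 8 B and plasma cell markers was 18.3, 19.5 and 19.1 in knockout and 9.19, 8.35 and 6.63 in wild type libraries, with 6 of 8 means higher in knockout cells and Tnfrsf17 at 0 in both. The myeloid markers summed to 13.97, 14.9 and 12.9 TPM in knockout and 6.14, 4.24 and 3.7 TPM in wild type libraries, with 5 of 6 means higher. The CD8 T and NK cell markers summed to 21.4, 22.9 and 18.7 TPM in knockout and 51.9, 49.2 and 51.3 TPM in wild type libraries, with 4 of 6 means higher and Ncr1 at 0 in both. T cell markers summed to 2032, 1906 and 1891 TPM in knockout and 1552, 1542 and 1473 TPM in wild type libraries, with 4 of 5 means higher. The part of these cells in the lower chaperone levels was not tested. Counted by library, 22 genes had every knockout value below every wild type value and 0 had the opposite, where 18.9% and 32.5% of all tested genes did so.

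Srci1 was set beside DMSO in wild type TH17 cells. Of the 35 genes 13 rose and 2 fell, where 33.8% of all genes rose and 7.08% fell, and the median log2 fold change was 0.17 over the 35 genes and 0.21 over all genes. With median-of-ratios scaling, under which the all-gene median was -0.01 and 50.2% of all calls were higher against 82.7%, only 2 of the 35 rose, Atf6 (0.43, adjusted p = 0.0156) and Sel1l (0.63, adjusted p = 0.00918). With it 9 fell, where 2126 of all 12800 genes rose and 2112 fell. Of the 9, Xbp1 (-0.76, adjusted p = 1.8e-05) and Pdia6 (-0.50, adjusted p = 0.000208) also fell on the TPM scale. The 7 others were Hspa5, Calr (-0.31, adjusted p = 0.00803), Creld2 (-0.37, adjusted p = 0.0338), Dnajb9 (-0.31, adjusted p = 0.0422), Hsp90b1 (-0.37, adjusted p = 0.00234), Manf (-0.42, adjusted p = 0.0247) and Hspa8 (-0.29, adjusted p = 0.0422). When TPM was rescaled after removal of ribosomal protein and mitochondrial genes, 8 rose and 4 fell. Of all 12800 genes 3173 then rose and 1298 fell. Ribosomal protein genes took 21.5, 22.7 and 22.2% of TPM in Srci1 and 26.5, 28.1 and 30.4% in DMSO libraries. DMSO replicate 3, which had the highest ribosomal protein share, was the lowest of its group for genes including Ern1, Atf6, Sel1l and Canx. For other genes, including Manf, Creld2, Edem1, Sec61b, Hsf1 and Hspe1, it was the highest of its group.

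Ern1 and Atf6 rose with Srci1 and Xbp1 fell. Ern1 measured 6.68, 9.57 and 7.3 TPM in Srci1 libraries, against 4.83, 5.71 and 3.02 TPM in DMSO libraries, and every Srci1 library lay above every DMSO library (log2 fold change 0.70 ± 0.2 SE, adjusted p = 0.014). With median-of-ratios scaling Ern1 gave 0.48 (adjusted p = 0.0563), without DMSO replicate 3 0.49 (adjusted p = 0.0657), and without Srci1 replicate 2 0.56 (adjusted p = 0.0615) (range over all alternatives 0.00779 to 0.0712). Atf6 measured 15.7, 13.6 and 14.99 TPM in Srci1 libraries, against 11.2, 9.61 and 6.38 TPM in DMSO libraries, again without overlap (log2 fold change 0.68 ± 0.16 SE, adjusted p = 0.0047; 0.47, adjusted p = 0.0134 without DMSO replicate 3; range over all alternatives 0.0013 to 0.0527). Xbp1 went the other way, with 176, 178 and 174 TPM in Srci1 libraries, against 251, 245 and 246 TPM in DMSO libraries. Its Srci1 values were tightly grouped and all below the DMSO values (log2 fold change -0.49 ± 0.055 SE, adjusted p = 1.54e-05), and its fold change was -0.76 to -0.48 over all alternatives.

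Of the 9 ER chaperones and co-factors 2 rose and 0 fell (limma; 0 lower at an unadjusted p under 0.05), but with median-of-ratios scaling 0 rose and 5 fell. Hspa5 measured 359, 309 and 321 TPM in Srci1 libraries, against 389.7, 354 and 356 TPM in DMSO libraries. The groups overlapped and Hspa5 was not called (-0.15, adjusted p = 0.106), though it was lower with median-of-ratios scaling (-0.42, adjusted p = 0.000272; range over all alternatives 0.000272 to 0.306). Dnajb11 measured 110.1, 99.6 and 105 TPM in Srci1 libraries, against 84.2, 88.03 and 80.6 TPM in DMSO libraries, with no overlap (log2 fold change 0.31 ± 0.054 SE, adjusted p = 0.000547). It gave 0.04 (adjusted p = 0.666) with median-of-ratios scaling (range over all alternatives 0.000317 to 0.666). Sdf2l1, the other gene of this role to pass (0.28, adjusted p = 0.0194), gave 0.01 (adjusted p = 0.971) under that scaling (range over all alternatives 0.0103 to 0.971), and its call was lost without DMSO replicate 1 or Srci1 replicate 2. The remaining 6 of this role were not called, with log2 fold changes from -0.15 for Manf to 0.19 for Dnajc3.

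Canx measured 244, 197 and 203 TPM in Srci1 libraries, against 175, 167 and 124 TPM in DMSO libraries, with no overlap (log2 fold change 0.47 ± 0.13 SE, adjusted p = 0.013). Its call did not hold without DMSO replicate 3 (0.32, adjusted p = 0.0621), without Srci1 replicate 1 (0.38, adjusted p = 0.0622) or with median-of-ratios scaling (0.20, adjusted p = 0.115; range over all alternatives 0.00737 to 0.115). Pdia6 measured 209.6, 185 and 187 TPM in Srci1 libraries, against 231, 225 and 227 TPM in DMSO libraries and was lower in every Srci1 library (log2 fold change -0.23 ± 0.064 SE, adjusted p = 0.0106), a call that held under all alternatives. Pdia3 passed at 0.25 (adjusted p = 0.0105) but turned to -0.02 (adjusted p = 0.838) with median-of-ratios scaling, and its call was lost without Srci1 replicate 1 (adjusted p = 0.0532; range over all alternatives 0.00637 to 0.838). Calr (-0.04, adjusted p = 0.658), which fell with median-of-ratios scaling as given above, and Pdia4 (0.12, adjusted p = 0.229) were not called.

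Sel1l had the largest log2 fold change of the 35 genes in this comparison. It measured 37.2, 29.6 and 36.9 TPM in Srci1 libraries, against 23.2, 19.9 and 12.8 TPM in DMSO libraries, and the lowest Srci1 library was above the highest DMSO library (log2 fold change 0.89 ± 0.2 SE, adjusted p = 0.00331). Without DMSO replicate 3, the lowest of all, the value was 0.65 (adjusted p = 0.0134), and over all alternatives the fold change was 0.59 to 1.06 with adjusted p from 0.00143 to 0.0324. Herpud1 passed at 0.23 (adjusted p = 0.00408) but turned to -0.03 (adjusted p = 0.779) with median-of-ratios scaling (range over all alternatives 0.00178 to 0.833). Syvn1, Edem1 and Sec61b were not called, with log2 fold changes of 0.14, 0.14 and 0.03.

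In the cytosol 5 of 10 genes passed, and the inducible HSP70 genes were among them. Hspa1b measured 5.59, 5.91 and 5.16 TPM in Srci1 libraries, against 3.41, 3.07 and 3.54 TPM in DMSO libraries (log2 fold change 0.59 ± 0.16 SE, adjusted p = 0.01). Hspa1a measured 3.33, 3.89 and 3.44 TPM in Srci1 libraries, against 1.98, 2.75 and 2.26 TPM in DMSO libraries (log2 fold change 0.46 ± 0.14 SE, adjusted p = 0.0199). Neither pair of groups overlapped, but with median-of-ratios scaling Hspa1b gave 0.38 (adjusted p = 0.118) and Hspa1a 0.26 (adjusted p = 0.172), and the Hspa1a call was lost without DMSO replicate 1 or Srci1 replicate 2 (adjusted p 0.0668 to 0.0683). Over all alternatives adjusted p ran from 0.000796 to 0.179 for Hspa1b and from 0.0123 to 0.199 for Hspa1a. Hsf1 itself measured 36.8, 33.5 and 38.8 TPM in Srci1 libraries, against 33.5, 36.02 and 38.1 TPM in DMSO libraries, which overlapped (0.02, adjusted p = 0.882). Dnaja1 (0.39, adjusted p = 0.00642) and Dnajb1 (0.30, adjusted p = 0.00233) passed but gave 0.12 (adjusted p = 0.243) and 0.04 (adjusted p = 0.75) with median-of-ratios scaling. Hsp90ab1 (0.19, adjusted p = 0.0247) turned to -0.08 (adjusted p = 0.27) with that scaling and was not called without DMSO replicate 3 or Srci1 replicate 1 (adjusted p 0.0910 to 0.108). None of the 3 mitochondrial genes was called (limma; unadjusted p under 0.05 for 0 of 3), with log2 fold changes of 0.19 for Hspd1, 0.12 for Hspa9 and -0.08 for Hspe1.

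Among the related genes, the PERK and ATF4 list had 5 of 10 higher and 0 lower, and 3 higher and 0 lower with median-of-ratios scaling. Of all tested genes 33.8% were higher and 7.08% lower. With that scaling 2126 of all 12800 genes were higher and 2112 lower. Trib3, a target of ATF4, averaged 23.9 ± 3.097 TPM in Srci1 and 10.9 ± 1.49 TPM in DMSO cells (1.07, adjusted p = 2.54e-05), and Ppp1r15b gave 0.59 (adjusted p = 0.000344). With median-of-ratios scaling Trib3 gave 0.82 (adjusted p = 0.00109) and Ppp1r15b 0.32 (adjusted p = 0.000872). Of 13 other degradation genes 6 rose and 0 fell, led by Ube2j1, an ER-bound ubiquitin-conjugating enzyme (0.57, adjusted p = 2.29e-05; 0.31, adjusted p = 0.000595 with median-of-ratios scaling); with median-of-ratios scaling 3 rose and 2 fell. The 19 other cytosolic genes had 8 higher and 0 lower, but 1 higher and 5 lower with median-of-ratios scaling, so their direction depended on the scaling. The same held for the translocon list of 15 (4 higher and 0 lower, but 0 higher and 4 lower) and for the ER folding list of 12 (4 higher and 0 lower, but 1 higher and 2 lower). The ATF6 list had 2 of 5 higher, including Mbtps1 (0.65, adjusted p = 0.00113; 0.39, adjusted p = 0.00397 with median-of-ratios scaling), and 1 lower, TRiC 1 higher and 0 lower, and the mitochondrial list 1 of 9 in each direction. Where a list had 0 lower in limma, 0 were lower at an unadjusted p under 0.05 too, except for 1 translocon and 1 folding gene. Summed CD8 T and NK cell markers were 117, 89.2 and 95.5 TPM in Srci1 and 51.9, 49.2 and 51.3 TPM in DMSO libraries, with 4 of 6 means higher in Srci1 cells. B and plasma cell markers summed to 2.97, 4.05 and 4 TPM in Srci1 and 9.19, 8.35 and 6.63 TPM in DMSO libraries, with 3 of 8 means higher. T cell markers summed to 1226, 1237 and 1235 TPM in Srci1 and 1552, 1542 and 1473 TPM in DMSO libraries, with 2 of 5 means higher. Their part in these results was not tested. Counted by library, 16 of the 35 genes had all Srci1 values above all DMSO values and 2 had them below, where 39.6% and 9.29% of all tested genes did so.

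**Figure D3:**
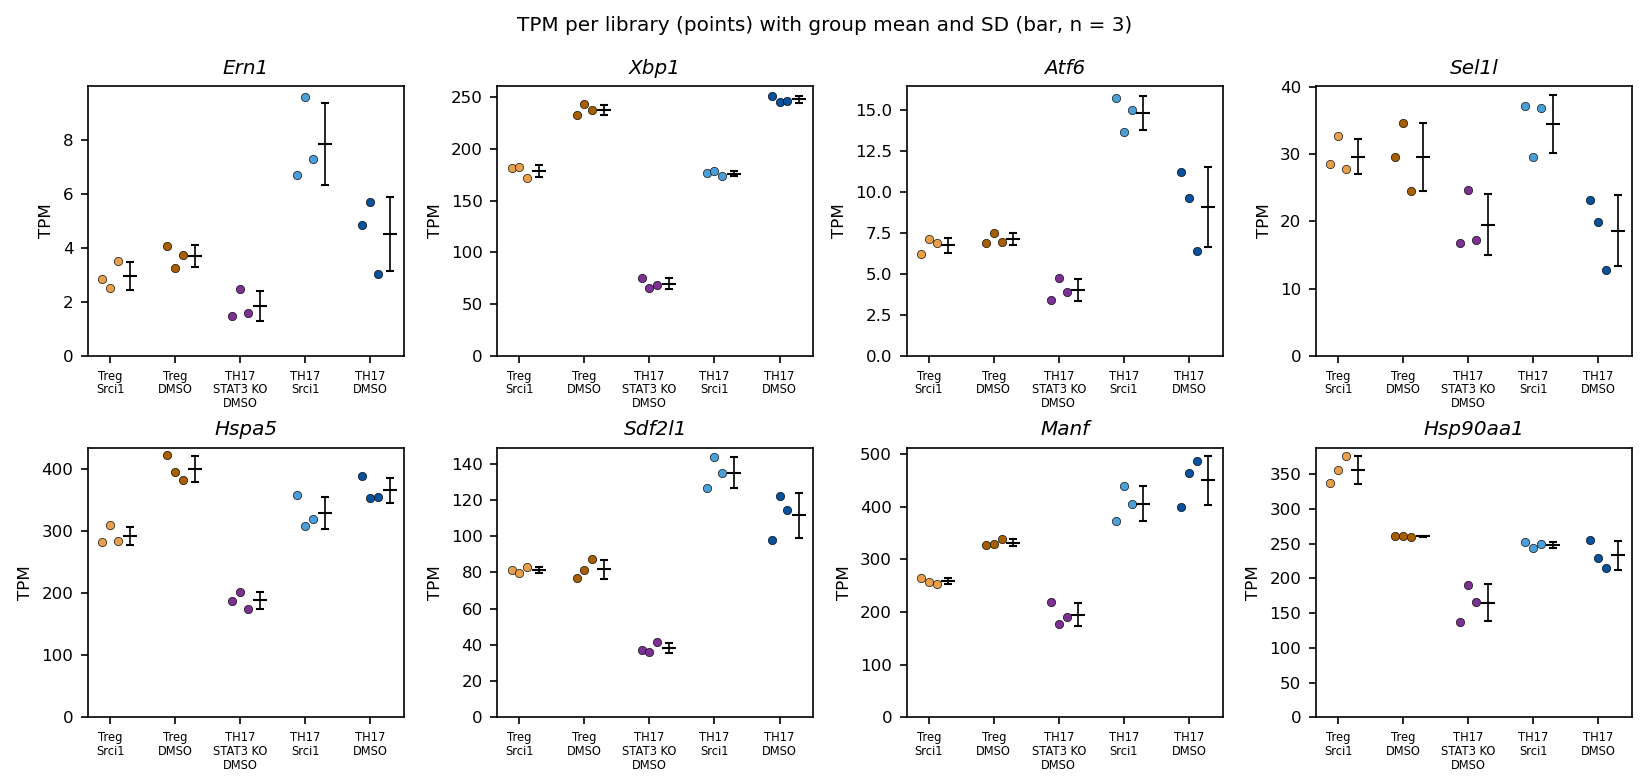
TPM of 8 genes in each library (points) with the group mean and SD beside them, for the 5 groups from Treg with Srci1 on the left to TH17 with DMSO on the right; axes start at 0. Ern1, Atf6 and Sel1l are highest in TH17 cells with Srci1, Xbp1 is lowest in STAT3 knockout cells and lower with Srci1 than with DMSO in both cell types, and Hsp90aa1 is highest in Treg cells with Srci1.

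In Treg cells, Srci1 against DMSO gave 6 of 35 genes higher and 6 lower, where 17.1% of all genes were higher and 10.0% lower; the medians were 0.01 for the 35 genes and 0.11 for all genes. With median-of-ratios scaling 2 were higher and 8 lower, and the share of higher genes among all calls was 43.7% against 63.0%. Of all 12800 genes 1369 were higher and 1763 lower under that scaling. Xbp1 measured 181, 182 and 172 TPM in Srci1 Treg libraries, against 233, 243 and 237 TPM in DMSO Treg libraries, with no overlap (log2 fold change -0.41 ± 0.055 SE, adjusted p = 9.9e-05; -0.54 to -0.38 over all alternatives). Ern1 measured 2.86, 2.5 and 3.51 TPM in Srci1 Treg libraries, against 4.07, 3.27 and 3.74 TPM in DMSO Treg libraries, and the groups overlapped (-0.25, adjusted p = 0.385). Atf6 measured 6.22, 7.13 and 6.87 TPM in Srci1 Treg libraries, against 6.89, 7.51 and 6.91 TPM in DMSO Treg libraries, also with overlap (-0.07, adjusted p = 0.795). Xbp1 was the 1 gene of the 3 ER sensors and factors to pass here.

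Hspa5 measured 283, 309.7 and 285 TPM in Srci1 Treg libraries, against 423, 396 and 383 TPM in DMSO Treg libraries, and the highest Srci1 library lay below the lowest DMSO library (log2 fold change -0.45 ± 0.073 SE, adjusted p = 0.000457; -0.58 to -0.41 over all alternatives). Manf fell too (-0.36, adjusted p = 0.00726). Hyou1 missed the threshold (-0.27, adjusted p = 0.0503; range over all alternatives 0.000602 to 0.129), but was lower on leaving out any 1 of the 3 DMSO TH17 libraries, which enter only the shared variance (-0.27, adjusted p = 0.000602 without replicate 3). Without that replicate Canx (0.36, adjusted p = 0.0248) and Dnajb1 (0.17, adjusted p = 0.0481) were called higher. Pdia6 measured 158, 168 and 156 TPM in Srci1 Treg libraries, against 192, 192 and 190.5 TPM in DMSO Treg libraries, and every Srci1 value lay below every DMSO value (log2 fold change -0.25 ± 0.064 SE, adjusted p = 0.0107). Pdia3 moved the other way, with 341, 361 and 334 TPM in Srci1 Treg libraries, against 302, 274 and 297 TPM in DMSO Treg libraries (log2 fold change 0.25 ± 0.068 SE, adjusted p = 0.017). With median-of-ratios scaling it gave 0.12 (adjusted p = 0.181) and its call was lost without DMSO replicate 2 or Srci1 replicate 2 (range over all alternatives 0.0033 to 0.181). Pdia4 passed at 0.24 (adjusted p = 0.0365) and lost its call on leaving out any 1 of 5 of the 6 Treg libraries (adjusted p 0.0711 to 0.114; 0.00523 to 0.229 over all alternatives). Sec61b measured 473, 479.8 and 510.2 TPM in Srci1 Treg libraries, against 419, 426 and 437 TPM in DMSO Treg libraries (log2 fold change 0.19 ± 0.056 SE, adjusted p = 0.022). Its call was lost on leaving out any 1 of 3 libraries (DMSO replicate 1 or 2, Srci1 replicate 3; adjusted p 0.0618 to 0.0923), and it gave 0.07 (adjusted p = 0.676) with median-of-ratios scaling.

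Of the 10 cytosolic genes 3 rose and 2 fell, and with median-of-ratios scaling Hsp90ab1 fell too (-0.17, adjusted p = 0.0384). Dnaja1, an HSP40 co-chaperone, measured 299, 289.9 and 309 TPM in Srci1 Treg libraries, against 191, 195 and 195 TPM in DMSO Treg libraries, a wide gap relative to the spread (log2 fold change 0.62 ± 0.098 SE, adjusted p = 0.000379; 0.50 to 0.65 over all alternatives). Hsp90aa1 measured 337, 356 and 377 TPM in Srci1 Treg libraries, against 261, 261 and 259.7 TPM in DMSO Treg libraries, again with no overlap (log2 fold change 0.45 ± 0.096 SE, adjusted p = 0.00351; range over all alternatives 0.000224 to 0.0185). The inducible HSP70 genes Hspa1a and Hspa1b fell. Hspa1a measured 1.76, 2.49 and 2.86 TPM in Srci1 Treg libraries, against 5.67, 6.06 and 5.94 TPM in DMSO Treg libraries (log2 fold change -1.05 ± 0.14 SE, adjusted p = 0.000114). Hspa1b measured 5.14, 5.08 and 4.79 TPM in Srci1 Treg libraries, against 8.8, 8.94 and 8.89 TPM in DMSO Treg libraries (log2 fold change -0.72 ± 0.16 SE, adjusted p = 0.00499). Both had every Srci1 library below every DMSO library, and their summed TPM was 6.9, 7.57 and 7.65 in Srci1 against 14.5, 15 and 14.8 in DMSO libraries. The Hspa1b call was lost with a pseudocount of 0.1 (-0.82, adjusted p = 0.0837; range over all alternatives 0.000308 to 0.0837). Hsph1 passed at 0.30 (adjusted p = 0.033) but not on leaving out any 1 of 4 libraries (DMSO replicate 1 or 3, Srci1 replicate 1 or 2; adjusted p 0.0850 to 0.126; 0.0068 to 0.162 over all alternatives). Hsf1 measured 38.4, 39.4 and 41.1 TPM in Srci1 Treg libraries, against 34.7, 37.02 and 38.98 TPM in DMSO Treg libraries (0.10, adjusted p = 0.379), and its groups overlapped.

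No mitochondrial member passed (limma; unadjusted p under 0.05 for 1 of 3), with log2 fold changes of 0.21 for Hspd1, -0.03 for Hspa9 and -0.13 for Hspe1. In the related lists, the PERK and ATF4 branch had 0 of 10 higher (1 at an unadjusted p under 0.05) and 6 lower, the same counts as with median-of-ratios scaling. Of all tested genes 17.1% were higher and 10.0% lower. Under that scaling 1369 of all 12800 genes were higher and 1763 lower. Atf3, a stress-induced transcription factor, measured 5.5, 3.21 and 2.37 TPM with Srci1 against 22.02, 32.5 and 20.5 TPM with DMSO (-2.50, adjusted p = 5.49e-06), and Chac1, a glutathione-degrading target of ATF4, averaged 1.35 ± 0.469 TPM against 5.597 ± 1.15 TPM (-1.49, adjusted p = 9.13e-05). Creb3l2, an ER-anchored relative of ATF6, fell (-1.86, adjusted p = 9.06e-07), and 1 of the 5 genes of that list rose. Of the 19 other cytosolic genes 5 rose, with Ahsa1, an activator of HSP90, the one of smallest adjusted p (0.36, adjusted p = 2.32e-05), and 2 fell; with median-of-ratios scaling 2 rose and 4 fell. The folding list had 2 of 12 lower, the degradation list 2 of 13 higher, the translocon list 1 of 15 lower and the mitochondrial list 2 of 9 lower. In each of these 4 lists 0 were called the other way (limma; 2, 1, 1 and 1 at an unadjusted p under 0.05). For TRiC 0 of 8 were called (1 higher at an unadjusted p under 0.05). Counted by library, 11 of the 35 genes had all Srci1 values above all DMSO values and 10 below, where 34.4% and 15.9% of all genes did so. Ribosomal protein genes took 21.3, 20.99 and 20.3% of TPM in Srci1 Treg and 25.04, 25.2 and 24.9% in DMSO Treg libraries. With TPM rescaled without them and mitochondrial genes, 3 of the 35 genes were higher and 7 lower, where 1751 of all 12800 were higher and 1484 lower. Summed B and plasma cell markers were 3.76, 2.5 and 2.46 TPM in Srci1 Treg and 7.75, 4.98 and 5.29 TPM in DMSO Treg libraries, with 2 of 8 means higher in Srci1 cells. CD8 T and NK cell markers summed to 10.9, 10.5 and 10.6 TPM in Srci1 Treg and 23.2, 22.3 and 24.1 TPM in DMSO Treg libraries, with 4 of 6 means higher. The myeloid markers summed to 1.91, 2.85 and 1.82 TPM in Srci1 Treg and 3.82, 3.86 and 5.06 TPM in DMSO Treg libraries, with 0 of 6 means higher. T cell markers summed to 1501, 1558 and 1498 TPM in Srci1 Treg and 1782, 1788 and 1795 TPM in DMSO Treg libraries, with 0 of 5 means higher. Their part in these results was not tested.

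**Figure D4:**
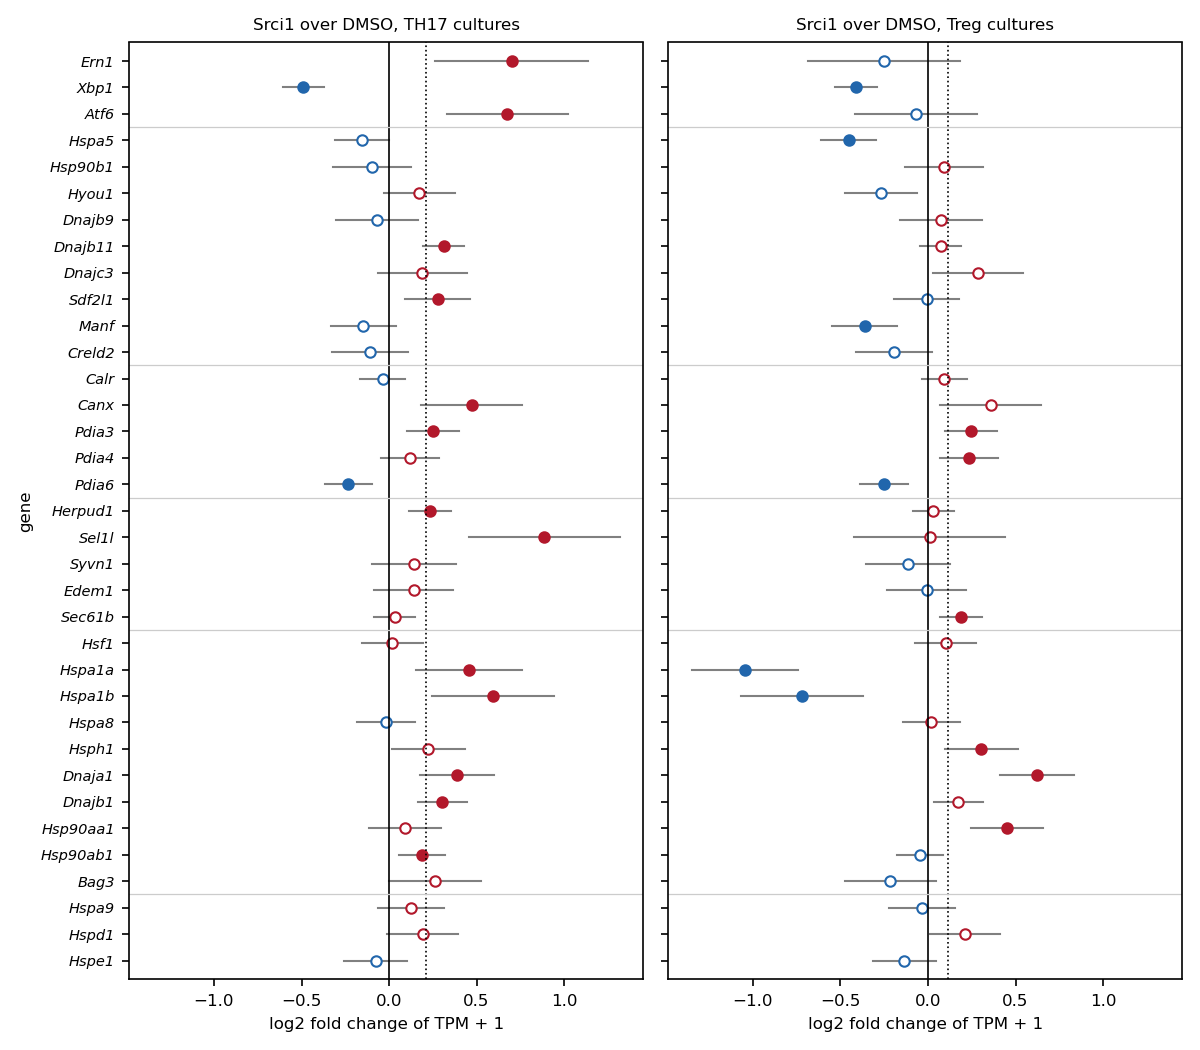
Log2 fold change of each of the 35 genes for Srci1 minus DMSO, in TH17 cells (left panel) and in Treg cells (right panel), with 95% limma intervals; filled points passed an adjusted p of 0.05 and dotted lines mark the all-gene medians of 0.21 and 0.11. Xbp1 and Pdia6 are filled to the left of 0 in both panels, while Hspa1a and Hspa1b are to the right in TH17 and to the left in Treg cells.

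The difference between the 2 Srci1 effects was tested itself, as the TH17 effect minus the Treg effect. It passed for 5 of 35 genes, all with a positive difference, where 11.3% of all genes had a positive and 2.95% a negative difference. Of all genes called at an adjusted p under 0.05, 79.2% were positive. At an unadjusted p under 0.05, 12 of the 35 were positive and 1 negative, and 3614 of all 12800 genes passed in either direction. The all-gene median of the difference was 0.13. Hspa1a gave a difference of 1.501 (95% interval 1.07 to 1.93, adjusted p = 0.000224) and Hspa1b of 1.31 (95% interval 0.82 to 1.80, adjusted p = 0.00171), and both passed under every alternative, with highest adjusted p of 0.0013 for Hspa1a and 0.0449 for Hspa1b. As the values above show, the pair was higher with Srci1 in every TH17 library and lower with it in every Treg library. Under median-of-ratios scaling the TH17 rise was not called for either gene.

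**Figure D5:**
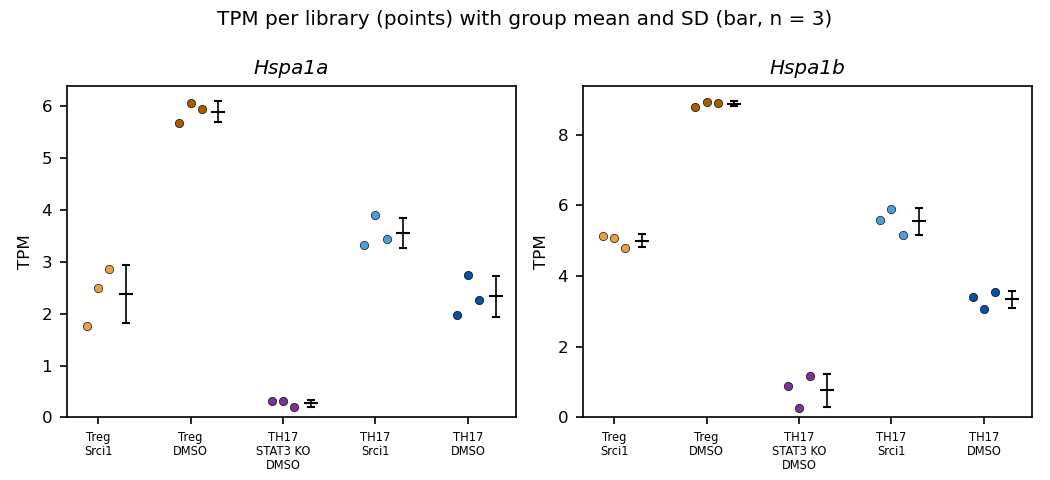
TPM of Hspa1a and Hspa1b in each library (points) with group mean and SD, for the 5 groups with Treg cells on the left; axes start at 0. The highest values are in Treg cells with DMSO, the lowest in STAT3 knockout TH17 cells, and Srci1 values lie below DMSO values in Treg cells and above them in TH17 cells.

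Ern1 gave a difference of 0.95 (95% interval 0.34 to 1.57, adjusted p = 0.0408; 0.0241 to 0.097 over all alternatives), Atf6 of 0.74 (95% interval 0.25 to 1.24, adjusted p = 0.0451; 0.0133 to 0.1) and Hyou1 of 0.44 (95% interval 0.15 to 0.73, adjusted p = 0.0427; 0.0118 to 0.0931). These 3 calls were close to the threshold and were lost on leaving out any 1 of 8 libraries for Ern1, of 12 for Atf6 and of 11 for Hyou1. Without DMSO TH17 replicate 3 Ern1 gave 0.74 (adjusted p = 0.0768) and Atf6 0.54 (adjusted p = 0.0589). Xbp1 did not pass (-0.08, 95% interval -0.24 to 0.09, adjusted p = 0.563), and neither did Hspa5 (0.30, 95% interval 0.08 to 0.52, adjusted p = 0.0708), Sel1l (0.88, 95% interval 0.27 to 1.49, adjusted p = 0.055) or Hsf1 (-0.08, 95% interval -0.33 to 0.16, adjusted p = 0.695). Hsp90aa1 (-0.36, adjusted p = 0.1) did not pass either, but with median-of-ratios scaling it did (-0.50, adjusted p = 0.00722; range over all alternatives 0.00722 to 0.19). That scaling also gave calls for Dnaja1 (-0.38, adjusted p = 0.0275) and Sel1l (0.74, adjusted p = 0.0462) and none for Hyou1 (0.30, adjusted p = 0.0586). In the PERK and ATF4 list 7 of 10 differences were positive and 0 negative (0 at an unadjusted p under 0.05; 5 and 0 with median-of-ratios scaling), with Trib3 at 1.87 (adjusted p = 1.6e-05) and Atf3 at 2.56 (adjusted p = 0.000212). The other lists had 0 to 2 genes in either direction. Of all tested genes 11.3% had a positive and 2.95% a negative difference. With median-of-ratios scaling 1137 of all 12800 genes had a positive and 710 a negative difference.

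Because knockout and Srci1 TH17 cells are each compared with the same DMSO libraries, they were also compared with each other. Of the 35 genes, 27 were lower in knockout than in Srci1 cells and 0 higher in limma, where 30.6% of all genes were lower and 18.4% higher. At an unadjusted limma p under 0.05, 29 were lower and 0 higher, and 7046 of all 12800 genes passed in either direction. The medians were -0.60 for the 35 and -0.11 for all genes. The 27 lower genes were 16 of 22 in the ER, 9 of 10 in the cytosol and 2 of 3 in mitochondria. With median-of-ratios scaling 21 were lower and 0 higher, and 49.9% of all calls were higher against 37.6%. Of all 12800 genes 3147 were lower and 3130 higher under that scaling. By library, 28 genes had all knockout values below all Srci1 values and 0 above, where 34.8% and 21.4% of all genes did so. Summed B and plasma cell markers were 18.3, 19.5 and 19.1 TPM in knockout and 2.97, 4.05 and 4 TPM in Srci1 libraries, with 6 of 8 means higher in knockout cells. The myeloid markers summed to 13.97, 14.9 and 12.9 TPM in knockout and 4.21, 4.85 and 4.25 TPM in Srci1 libraries, with 6 of 6 means higher. CD8 T and NK cell markers summed to 21.4, 22.9 and 18.7 TPM in knockout and 117, 89.2 and 95.5 TPM in Srci1 libraries, with 4 of 6 means higher. Ribosomal protein genes took 29.1, 27.4 and 29.7% of TPM in knockout and 21.5, 22.7 and 22.2% in Srci1 libraries. The part of these differences in the results was not tested.

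Atf6 measured 3.43, 4.76 and 3.9 TPM in knockout libraries, against 15.7, 13.6 and 14.99 TPM in Srci1 libraries, with no overlap (log2 fold change -1.65 ± 0.16 SE, adjusted p = 1.37e-06). Ern1 (-1.64, adjusted p = 1.34e-05) and Xbp1 (-1.32, adjusted p = 1.77e-10) were lower too, and so was Hspa5 (-0.80, adjusted p = 6.25e-07). Sdf2l1 measured 37.1, 35.98 and 41.5 TPM in knockout libraries, against 126, 144 and 135 TPM in Srci1 libraries (log2 fold change -1.79 ± 0.086 SE, adjusted p = 7.11e-10). Pdia6 (-0.84, adjusted p = 1e-07) and Sel1l (-0.80, adjusted p = 0.0043) led their roles, Sel1l with 16.7, 24.7 and 17.2 TPM in knockout libraries, against 37.2, 29.6 and 36.9 TPM in Srci1 libraries. None of these libraries overlapped between the 2 groups. Hspa1b measured 0.88, 0.26 and 1.16 TPM in knockout libraries, against 5.59, 5.91 and 5.16 TPM in Srci1 libraries (log2 fold change -1.93 ± 0.16 SE, adjusted p = 2.77e-07) and Hspa1a gave -1.83 (adjusted p = 1.14e-07). Hspa9 measured 146, 157 and 140.5 TPM in knockout libraries, against 258, 209 and 217 TPM in Srci1 libraries (log2 fold change -0.62 ± 0.088 SE, adjusted p = 5.12e-05). Hsf1 (-0.24, adjusted p = 0.0266) lost its call on leaving out any 1 of 4 libraries (knockout replicate 2 or 3, Srci1 replicate 1 or 3; adjusted p to 0.110) and gave 0.452 as adjusted p with median-of-ratios scaling. Dnaja1 (-0.26, adjusted p = 0.0427) lost its call on leaving out any 1 of 10 libraries and Hspd1 (-0.29, adjusted p = 0.0188) on leaving out any 1 of 3. Adjusted p over all alternatives was 0.0135 to 0.53 for Hsf1, 0.00276 to 0.533 for Dnaja1 and 0.00567 to 0.283 for Hspd1. Calls for Calr (-0.17, adjusted p = 0.0914), Hspa8 (-0.16, adjusted p = 0.209) and Sec61b (-0.07, adjusted p = 0.601) were lost with median-of-ratios scaling, and without DMSO TH17 replicate 3, which enters only the shared variance, Dnajc3 (-0.29, adjusted p = 0.0337) was called lower. Of the PERK and ATF4 list, 8 of 10 were lower and 0 higher in limma, including Trib3 (-2.18, adjusted p = 5.55e-09) and Atf4 (-0.89, adjusted p = 6.21e-09). At an unadjusted limma p under 0.05, 1 of the list was higher. With median-of-ratios scaling 7 of the list were lower and 1 higher. Of all tested genes 30.6% were lower and 18.4% higher, and under that scaling 3147 of 12800 were lower and 3130 higher.

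Between the cell types in DMSO, Treg against TH17, 9 of 35 genes were higher and 6 lower in Treg cells, where 32.3% of all genes were higher and 12.5% lower; the medians were 0.10 for the 35 and 0.18 for all genes. With median-of-ratios scaling 4 were higher and 13 lower, and 49.2% of all calls were higher against 72.0%. Of all 12800 genes 2701 were higher and 2789 lower under that scaling. The 7 genes that scaling added to the 6 lower were Xbp1, Atf6 (-0.48, adjusted p = 0.00639), Creld2 (-0.37, adjusted p = 0.0278), Hsp90b1 (-0.24, adjusted p = 0.0201), Pdia4 (-0.30, adjusted p = 0.00167), Syvn1 (-0.45, adjusted p = 0.00332) and Dnajb1 (-0.31, adjusted p = 0.00618). None of the 3 sensors and factors passed (limma; 0 of 3 at an unadjusted p under 0.05). Ern1 measured 4.07, 3.27 and 3.74 TPM in Treg libraries, against 4.83, 5.71 and 3.02 TPM in TH17 libraries (-0.21, adjusted p = 0.438), and the groups overlapped. Xbp1 measured 233, 243 and 237 TPM in Treg libraries, against 251, 245 and 246 TPM in TH17 libraries (-0.06, adjusted p = 0.404; with median-of-ratios scaling -0.28, adjusted p = 0.0169), with every Treg value below every TH17 value. Atf6 measured 6.89, 7.51 and 6.91 TPM in Treg libraries, against 11.2, 9.61 and 6.38 TPM in TH17 libraries (-0.28, adjusted p = 0.174; without TH17 replicate 3 -0.49, adjusted p = 0.00827), with overlapping groups. Over all alternatives adjusted p ran from 0.0169 to 0.618 for Xbp1 and from 0.00111 to 0.537 for Atf6. Hspa5 was also not called (0.13, adjusted p = 0.171), with 423, 396 and 383 TPM in Treg libraries, against 389.7, 354 and 356 TPM in TH17 libraries, and its groups overlapped.

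ER co-chaperones differed in both directions. Dnajb9, which encodes the BiP co-chaperone ERdj4, measured 5.1, 4.43 and 4.63 TPM in Treg libraries, against 7.87, 6.37 and 6.87 TPM in TH17 libraries, with no overlap (log2 fold change -0.49 ± 0.11 SE, adjusted p = 0.00246; range over all alternatives 0.000121 to 0.0289). Sdf2l1 (-0.44, adjusted p = 0.000947) and Manf (-0.43, adjusted p = 0.00109) were lower in Treg cells as well. Dnajb11 measured 98.6, 97.9 and 98.6 TPM in Treg libraries, against 84.2, 88.03 and 80.6 TPM in TH17 libraries and was higher (log2 fold change 0.22 ± 0.054 SE, adjusted p = 0.00443), but gave 0.01 (adjusted p = 0.952) with median-of-ratios scaling. Pdia6 measured 192, 192 and 190.5 TPM in Treg libraries, against 231, 225 and 227 TPM in TH17 libraries (log2 fold change -0.25 ± 0.064 SE, adjusted p = 0.00594). Calr was lower too (-0.20, adjusted p = 0.0162), a call lost without Treg replicate 3 (adjusted p = 0.0644; range over all alternatives 0.000686 to 0.0644). Sel1l measured 29.6, 34.7 and 24.6 TPM in Treg libraries, against 23.2, 19.9 and 12.8 TPM in TH17 libraries, with every Treg value above every TH17 value (log2 fold change 0.67 ± 0.2 SE, adjusted p = 0.015). It was not called without TH17 replicate 3 (0.43, adjusted p = 0.0715) or Treg replicate 2 (0.55, adjusted p = 0.0664; range over all alternatives 0.00507 to 0.0715). Sec61b measured 419, 426 and 437 TPM in Treg libraries, against 525, 544 and 573 TPM in TH17 libraries and was lower in every Treg library (log2 fold change -0.36 ± 0.056 SE, adjusted p = 0.000154). Herpud1 was higher (0.28, adjusted p = 0.000927; with median-of-ratios scaling 0.07, adjusted p = 0.518).

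Of the 10 cytosolic genes 4 rose and 0 fell (limma; 0 lower at an unadjusted p under 0.05), while with median-of-ratios scaling 2 rose and 1 fell. Hspa1b measured 8.8, 8.94 and 8.89 TPM in Treg libraries, against 3.41, 3.07 and 3.54 TPM in TH17 libraries (log2 fold change 1.19 ± 0.16 SE, adjusted p = 4.47e-05). Hspa1a measured 5.67, 6.06 and 5.94 TPM in Treg libraries, against 1.98, 2.75 and 2.26 TPM in TH17 libraries (log2 fold change 1.06 ± 0.14 SE, adjusted p = 3.9e-05). Their summed TPM was 14.5, 15 and 14.8 in Treg against 5.39, 5.82 and 5.8 in TH17 libraries, and both stayed higher in Treg cells under all alternatives, with fold changes of 0.94 to 1.39 for Hspa1b and 0.84 to 1.31 for Hspa1a. Hsp90ab1 (0.24, adjusted p = 0.00569) and Dnaja1 (0.32, adjusted p = 0.0162) were also higher, with 0.02 (adjusted p = 0.794) and 0.10 (adjusted p = 0.281) under median-of-ratios scaling; Dnaja1 was not called without TH17 replicate 2 or 3 (adjusted p 0.0557 to 0.0592). Hsf1 did not pass (0.04, adjusted p = 0.719). In mitochondria, Hspd1, the chaperonin HSP60, measured 378, 374 and 364 TPM in Treg libraries, against 301, 256 and 245 TPM in TH17 libraries, with no overlap (log2 fold change 0.48 ± 0.093 SE, adjusted p = 0.00093; 0.26 to 0.57 over all alternatives). Hspa9 was higher (0.32, adjusted p = 0.00886; with median-of-ratios scaling 0.10, adjusted p = 0.208), and Hspe1, the partner of Hspd1, was not called (0.17, adjusted p = 0.12), but without TH17 replicate 3 it was higher (0.23, adjusted p = 0.0464).

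Among related genes, 6 of 10 of the PERK and ATF4 list were higher in Treg cells and 1 lower (4 and 2 with median-of-ratios scaling). Of all tested genes 32.3% were higher and 12.5% lower. Under that scaling 2701 of all 12800 genes were higher and 2789 lower. Atf3 measured 22.02, 32.5 and 20.5 TPM in Treg against 4.12, 5.83 and 4.09 TPM in TH17 libraries (2.18, adjusted p = 5.78e-06), and Chac1 was higher too (1.54, adjusted p = 2.55e-05). The 19 other cytosolic genes had 9 higher and 3 lower (4 and 4 with median-of-ratios scaling), with Fkbp5, an HSP90 co-chaperone, at 0.77 (adjusted p = 2.66e-05) and the heat shock factor Hsf2 at 0.85 (adjusted p = 0.000188). The folding list had 5 of 12 higher and 2 lower, the degradation list 1 of 13 in each direction with Edem2 lower (-0.93, adjusted p = 6.43e-08), and the translocon list 3 of 15 higher and 1 lower. The ATF6 list had 2 of 5 higher and 0 lower, TRiC 3 of 8 higher and 0 lower, and the mitochondrial list 4 of 9 higher and 0 lower. In these last 3 lists limma gave 0 lower genes at an unadjusted p under 0.05 as well. With median-of-ratios scaling the ATF6 list and TRiC each had 0 higher and 1 lower. By library, 11 of the 35 genes had all Treg values above all TH17 values and 8 below, where 38.1% and 14.8% of all genes did so. Summed CD8 T and NK cell markers were 23.2, 22.3 and 24.1 TPM in Treg and 51.9, 49.2 and 51.3 TPM in TH17 libraries, with 2 of 6 means higher in Treg cells. T cell markers summed to 1782, 1788 and 1795 TPM in Treg and 1552, 1542 and 1473 TPM in TH17 libraries, with 5 of 5 means higher. B and plasma cell markers summed to 7.75, 4.98 and 5.29 TPM in Treg and 9.19, 8.35 and 6.63 TPM in TH17 libraries, with 5 of 8 means higher, and the myeloid markers to 3.82, 3.86 and 5.06 TPM in Treg and 6.14, 4.24 and 3.7 TPM in TH17 libraries, with 2 of 6 means higher. Their part in these results was not tested.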

How the data were processed

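The deposited table holds TPM values for 55421 gene IDs in 15 libraries, and the submitters' processing notes name STAR 2.7.9a, RSEM 1.3.3 and GRCm38 without their roles. TPM, as deposited, sums to the same total in each library, so depth, counting intervals and detection floors are unknown. Neither the annotation release nor the strand setting is stated in the labels or the table. Symbols came from a table of gene names (55154 IDs) and coordinates from GENCODE M21 on GRCm38. Promoters came from RefSeq.

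limma 3.58.1 in R 4.3.3, with a variance trend, was fitted to log2(TPM + 1) of the 12800 genes that reached 1 TPM in 3 or more libraries. A single model of 5 group means held all 15 libraries (10 residual degrees of freedom). A gene was called where its Benjamini-Hochberg adjusted p, taken over all tested genes, was under 0.05. The fit was tested on simulated data. Summaries used Python 3.11.15 with pandas 2.3.3, and figures matplotlib 3.10.9. All values are on this scale unless TPM is named.

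The members and lists were chosen with earlier results of these data known. In each role, the called gene of largest change in each direction was given library by library, as were Ern1, Xbp1, Atf6, Hsf1, Hspa5, Hspa1a and Hspa1b; in each list, up to 2 called genes of smallest adjusted p. Of 130 list entries, Ero1a and Ero1b were not matched. Alternatives were quantile normalization, median-of-ratios scaling, a pseudocount of 0.1, no filter (23425 genes), a 5 TPM filter (10041 genes), array weights, a model of the compared groups alone, a replicate block and leaving out each library. The estimation of array weights stopped before its convergence tolerance, and its values were kept in the counts and ranges given above and below. After seeing the data, TPM rescaled without ribosomal protein and mitochondrially encoded genes (163 of those tested) was added.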

Additional observations from a re-analysis of the deposited data

Results flagged for a closer look

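The Srci1 effect differed between TH17 and Treg cells by the test of the difference itself for 5 of the 35 genes, all with a positive difference, where 11.3% of all genes had one, each value being the TH17 effect minus the Treg effect on the log2 scale. The difference was 1.501 for Hspa1a (adjusted p = 0.000224) and 1.31 for Hspa1b (adjusted p = 0.00171). For these 2 genes every Srci1 library was above every DMSO library in TH17 cells and below every one in Treg cells. Of all tested genes 39.6% lay above in this way in TH17 cells and 15.9% below in Treg cells. With median-of-ratios scaling the TH17 rise was not called for Hspa1b (0.38, adjusted p = 0.118) or Hspa1a (0.26, adjusted p = 0.172). The split of reads between the 2 near-identical genes is uncertain, and their summed TPM averaged 7.37 ± 0.412 with Srci1 and 14.8 ± 0.271 with DMSO in Treg cells, and 9.11 ± 0.621 with Srci1 and 5.67 ± 0.243 with DMSO in TH17 cells (SD, n = 3 each). The difference was 0.95 for Ern1 (adjusted p = 0.0408), 0.74 for Atf6 (adjusted p = 0.0451) and 0.44 for Hyou1 (adjusted p = 0.0427). These 3 calls were lost on leaving out any 1 of 8 libraries for Ern1 (highest adjusted p 0.097), of 12 for Atf6 (0.1) and of 11 for Hyou1 (0.0931).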

How the results depend on the processing

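Of the counts over the 35 genes, those called lower in STAT3 knockout against wild type cells (22) and against Srci1 TH17 cells (27) stayed within 1.5 times their value under every alternative. Quantile normalization and the rescaling without ribosomal protein and mitochondrial genes each gave 1 gene higher instead of 0 in the knockout against wild type, and 1 instead of 0 in the knockout against Srci1. For Srci1 in TH17 cells, the 13 higher genes became 2 with median-of-ratios scaling, 3 with quantile normalization, 7 in a model of the compared groups alone and 8 with the rescaling, and the 2 lower genes became 9, 7 and 4 under the 3 scalings in that order. Over all genes the 4324 higher became 2126, 2159 and 3173 under those 3 scalings, and the 906 lower became 2112, 1973 and 1298. With the compared groups alone, 2859 of all genes were higher. In that comparison Pdia3 (-0.0199), Herpud1 (-0.0328) and Hsp90ab1 (-0.0841) reversed with median-of-ratios scaling. For Srci1 in Treg cells, the 6 higher genes became 2, 3 and 3 under the same scalings, and 10 with the compared groups alone or array weights. Over all genes the 2192 higher became 1369, 1749 and 1751 under the scalings. They became 3015 with the compared groups alone and 3452 with array weights. For Treg against TH17, the 9 higher became 4 and the 6 lower 13 with median-of-ratios scaling, and 12 lower with quantile normalization. Over all genes the 4132 higher became 2701 and the 1605 lower 2789 with median-of-ratios scaling, and 2739 lower with quantile normalization. For the difference of the Srci1 effects, the 5 positive became 3 with a pseudocount of 0.1, no filter, the compared groups alone or the replicate block, 2 with the rescaling and 10 with array weights, and the 0 negative became 2 with median-of-ratios scaling and 1 with the compared groups alone, array weights or the rescaling. Over all genes the 1443 positive became 1350, 1246, 1440, 1326, 1288 and 1740 under those settings in the order named for the positive genes. The 378 negative became 710 with median-of-ratios scaling, 383 with the compared groups alone, 548 with array weights and 494 with the rescaling. The cause of these changes was not tested.

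Leaving out each library in turn gave 0 to 1 higher and 21 to 22 lower for the knockout against wild type, 10 to 13 higher and 2 to 3 lower for Srci1 in TH17, 3 to 8 higher and 6 to 7 lower for Srci1 in Treg, 8 to 10 higher and 5 to 7 lower for Treg against TH17, 2 to 8 positive and 0 to 1 negative for the difference of Srci1 effects, and 0 to 0 higher and 24 to 28 lower for the knockout against Srci1. The 3 higher genes for Srci1 in Treg came without DMSO Treg replicate 1 or 2 or Srci1 Treg replicate 2. Libraries with the same replicate number did not deviate together (correlations -0.171 to 0.128, over 0.1 in 2 of 30 pairs), so the numbers were taken as names only, and the replicate block moved no other count by over 1.5 times. Depth is unknown, so its limit on low genes such as Hspa1a could not be computed.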
